A study of Rattus norvegicus with 6 samples.

Results

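The genes described here are 9 immediate early response genes of the rat kidney: Fos, Fosb, Jun, Egr1, Nr4a1, Myc, Atf3, Dusp1 and Btg2. They were taken by a fixed list of Ensembl identifiers, and all 9 are among the 28787 gene models of the deposited tables. The tables carry no gene names, so the symbols are those of the list. The reference table of rat genes matched 0 of 26689 Ensembl identifiers and could not check them. All 9 passed the low-count filter, which left 16324 models for testing. RNA came from kidneys of male rats aged 7 weeks, with 3 libraries from Dahl Salt Sensitive (Dahl SS) rats, the controls, and 3 from Resp18 mutant rats. Both groups had been moved at 6 weeks of age to a diet with 2% salt, which they ate for 1 week. No group on another diet was analysed here, so these values hold for rats on salt only. Dahl SS rats are inbred and become hypertensive when fed salt, and Resp18 encodes regulated endocrine-specific protein 18, known from neuroendocrine cells. The labels used here do not give the kind of mutation, the strain that carries it, or whether each library stands for its own animal. The p-values therefore measure the spread between these libraries, which may be technical.

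Immediate early genes are switched on within minutes of a stimulus from transcription factors already present in the cell, without new protein synthesis. Growth factors, calcium, cyclic AMP, mechanical strain and injury act on them through kinases, which reach serum response factor and CREB at their promoters. Their transcripts are short-lived, so levels rise and fall quickly. In the kidney this group is known for its fast response to ischaemia, to vasoactive hormones and to handling of the tissue. Fos, Fosb and Jun encode subunits of AP-1, a dimeric transcription factor. Egr1, Nr4a1, Myc and Atf3 encode other transcription factors. Dusp1 encodes a phosphatase that switches off MAP kinases, and Btg2 encodes an antiproliferative protein. In RNA from kidney tissue, a change in the number of cells expressing a gene and a change in RNA per cell cannot be told apart.

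Total counts ranged from 13427302 to 22854561 per library. Libraries differed in how abundance went with the length of the gene model. The rank correlation of model length with a library's deviation from the mean ran from 0.369 in Dahl SS replicate 1 to -0.373 in mutant replicate 1, while the other 4 libraries lay between -0.17 and 0.0394. Values without this trend, or without these 2 libraries, are given where they moved a result. Without names for other models, the markers of kidney cell types and the further early response genes listed beforehand were not analysed here.

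The 9 genes covered a wide range of levels. Per length, in the deposited FPKM (reads per model length and library total), Jun was the highest at 67.5 ± 11.1 (SD, n = 6 libraries). Jun stood above 92.0% of the tested models. Btg2 was at 12.9 ± 0.555 FPKM and Dusp1 at 11.5 ± 2.88 (SD, n = 6). These 2 overlapped, with Btg2 the higher in 5 of 6 libraries. Egr1 was at 4.66 ± 1.49, Nr4a1 at 3.20 ± 0.276 and Myc at 3.09 ± 0.441 FPKM (SD, n = 6). Every library of Dusp1 lay above every library of Egr1, and every library of Egr1 above every library of Nr4a1. Nr4a1 and Myc could not be ordered, since each was the higher in 3 libraries. Atf3 at 2.02 ± 0.496 FPKM was below Myc in each of the 6 libraries. Fos was at 1.40 ± 0.487 FPKM (SD, n = 6) and below Atf3 in 5 of 6 libraries. Fosb was the lowest at 0.236 ± 0.0956 FPKM (SD, n = 6), above only 1.1% of the tested models. Most of the group was thus at low level in these kidneys, with a mean below 5 FPKM in 6 of the 9 and Fosb resting on 5 to 26 reads per library.

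Mutant kidneys were set against Dahl SS kidneys to ask whether these genes differ in level between salt-fed rats of the 2 groups. None of the 9 genes passed edgeR's quasi-likelihood test at a false discovery rate (FDR) of 0.05 over 16324 models, where 0.0123% of all tested models passed. DESeq2 gave an adjusted p for 8 of the 9 (not for Fosb) and called 0 of them, where it called 0.684% of the 15361 models that it gave one. At an unadjusted p under 0.05, edgeR gave 2 of the 9, Fos and Dusp1, both higher in mutants, where 5.67% of all models did so in that direction. DESeq2 gave 3, adding Egr1. Among all tested models 10.8% reached that level in edgeR and 9.82% in DESeq2. The groups did not overlap in 2 of the 9 genes, again Fos and Dusp1, where this held for 17.2% of all models and for 8.69% with the mutants higher. The log2 fold change was above 0 in 8 of the 9 genes, where it was above 0 in 50.9% of all models. Without Dahl SS replicate 1 and mutant replicate 1 together it was above 0 in 5 of the 9. The median over the 9 genes was 0.09, beside 0.01 over all models, and the median absolute value was 0.13, beside 0.15. For the fold change, 95% intervals stayed within 2-fold either way in 7 of the 9 genes, all but Fos and Fosb, where this held for 83.8% of all tested models.

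**Figure D1:**
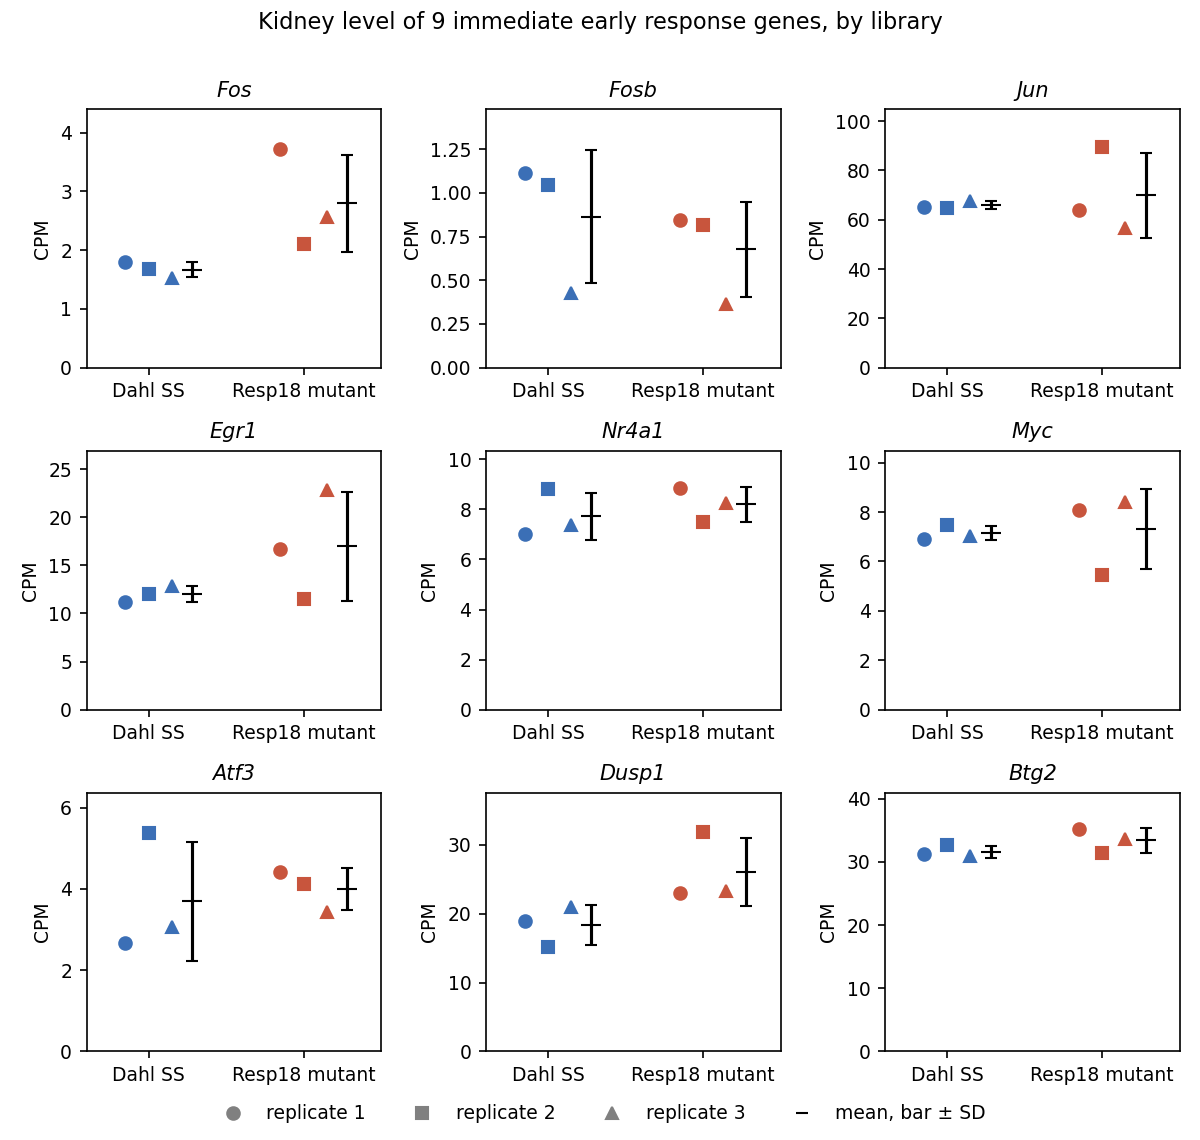
CPM (counts scaled to the TMM-adjusted library size) of each gene on axes that start at 0; each point is a library, its shape gives the replicate, and bars show the mean ± SD of 3 libraries. In Fos and Dusp1 the 3 mutant libraries lie above the 3 Dahl SS libraries, and in the other 7 genes the groups overlap.

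Among the AP-1 subunits, Fos had the largest difference. It partners with Jun and is among the fastest of the early genes. Fos (ENSRNOG00000008015, model length 1589 bases) had 1.80, 1.68 and 1.53 CPM in Dahl SS replicates 1 to 3, from 42, 24 and 25 reads. In mutant replicates 1 to 3 it had 3.72, 2.11 and 2.56 CPM, from 79, 44 and 35 reads. All mutant libraries were above all controls, and mutant replicate 1 was the highest by a wide gap. The mutant level of Fos was 1.67-fold that of controls (1.08 to 2.58 as 95% interval; 0.74 ± 0.28 SE on the log2 scale), a difference that did not pass edgeR's test (unadjusted p = 0.0253, adjusted p = 0.418). Without mutant replicate 1 the log2 fold change was 0.48 (edgeR unadjusted p = 0.134), and without Dahl SS replicate 2 or 3 the unadjusted edgeR p was 0.0503 or 0.0708. Mutant replicate 1 is also the library at the lower end of the length trend. With that trend removed, Fos stood at 0.69 (log2; edgeR unadjusted p = 0.031), and without both end libraries at 0.53 (edgeR unadjusted p = 0.149).

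Fosb, a close relative of Fos, did not share its pattern. Fosb (ENSRNOG00000046667, 3251 bases) had 1.12, 1.05 and 0.429 CPM in Dahl SS and 0.847, 0.816 and 0.366 CPM in mutants. The replicates numbered 3 were the lowest of both groups, with 7 and 5 reads, and the groups overlapped throughout. The log2 fold change was -0.32 ± 0.46 SE (edgeR adjusted p = 0.801). Its 95% interval, from 0.388-fold to 1.65-fold, leaves a change past 2-fold lower possible at this depth. The log2 fold change moved to -0.63 without Dahl SS replicate 3 and to -0.06 without Dahl SS replicate 1.

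Jun, the most abundant of the 9, was nearly constant in Dahl SS kidneys. Jun (ENSRNOG00000026293, 1005 bases) had 65.1, 64.9 and 67.6 CPM in Dahl SS, and 63.9, 89.3 and 56.5 CPM in mutants. Mutant replicate 2 was above every control and the other 2 mutants were below every control. The log2 fold change was 0.09 ± 0.15 SE (edgeR adjusted p = 0.834), with a 95% interval from 0.837-fold to 1.35-fold. Its direction depended on mutant replicate 2, without which it was -0.12. It was -0.01 with the length trend removed. Jun is the shortest of the 9 models, and the fitted trend alone gave a mutant minus Dahl SS difference of 0.10 (log2) at its length, against -0.02 to 0.04 at the lengths of the other 8.

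Of the other transcription factors, Egr1 differed most between groups. Egr1 is a zinc-finger factor induced through serum response factor. Egr1 (ENSRNOG00000019422, 3114 bases) had 11.2, 12.0 and 12.9 CPM in Dahl SS and 16.7, 11.5 and 22.8 CPM in mutants. Mutant replicates 1 and 3 were above every control, while mutant replicate 2 lay among the controls. The fold change was 1.40 (95% interval 0.996 to 1.98; log2 fold change 0.49 ± 0.22 SE; edgeR unadjusted p = 0.0522, adjusted p = 0.466). It rested on single libraries, at 0.23 (log2) without mutant replicate 3 and 0.72 without mutant replicate 2, where the edgeR unadjusted p was 0.00254 and the adjusted p 0.358. With the length trend removed, Egr1 stood at 0.51 (log2, edgeR unadjusted p = 0.0433), and without both end libraries at 0.44 (edgeR unadjusted p = 0.133).

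The Egr1 promoter is printed because it holds the DNA element through which serum response factor is known to act on early genes. The promoter sequences come from RefSeq (build GRCr8), whose table held 5 of the 9 genes by symbol: Fosb, Egr1, Nr4a1, Dusp1 and Btg2. It has no entry for Fos, Jun, Myc and Atf3. Windows ran from 250 bases before to 50 after the gene's start and were searched on both strands, and only the 250 bases before the start are shown. Searched were the CArG box (serum response element), the cAMP response element TGACGTCA, its short form TGACG (contained in the full element), the AP-1 site TGANTCA, the NF-kappaB site, the TATA element TATAAA and the GC box GGGCGG. Capitals mark CArG boxes, full and short cAMP response elements and AP-1 sites. Matches to the other motifs are not marked. GC boxes were found in the Nr4a1, Dusp1 and Btg2 windows, and in 33.1% of all promoters in the table. An NF-kappaB match lay at -16 to -7 in Nr4a1 (7.51% of all promoters). Fosb held a TATA element at -180 to -175, on the reverse strand (14.2% of all promoters, on either strand). The Egr1 stretch is chr18:26736828-26737077 (+ strand).
Egr1: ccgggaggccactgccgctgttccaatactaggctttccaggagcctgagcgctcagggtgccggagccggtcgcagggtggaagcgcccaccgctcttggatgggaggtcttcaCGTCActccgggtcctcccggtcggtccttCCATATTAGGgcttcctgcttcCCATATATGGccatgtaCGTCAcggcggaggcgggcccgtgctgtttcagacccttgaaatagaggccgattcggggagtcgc
It holds CArG boxes at -105 to -96 and -83 to -74 from the start, and short cAMP response elements at -135 to -131 and -66 to -62 on the reverse strand. A CArG box occurred in 1.64% of all 33469 promoters in the table, and a short form in 21.2%. Egr1 was the only gene of the 5 with a CArG box in the window. A match describes these letters and is not evidence of a site in use.

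Nr4a1, Myc and Atf3 showed small differences. Nr4a1 (ENSRNOG00000007607, 2481 bases), an orphan nuclear receptor, had 7.00, 8.80 and 7.36 CPM in Dahl SS and 8.85, 7.49 and 8.26 CPM in mutants. The groups overlapped, and the log2 fold change was 0.09 ± 0.15 SE (edgeR adjusted p = 0.826). It was 0.02 without Dahl SS replicate 1 and 0.20 without Dahl SS replicate 2. The Nr4a1 window held 4 short cAMP response elements, all on the reverse strand, and no full one. Myc (ENSRNOG00000004500, 2339 bases), a regulator of growth genes, had 6.91, 7.47 and 7.05 CPM in Dahl SS and 8.10, 5.47 and 8.41 CPM in mutants. As in Egr1, mutant replicates 1 and 3 were above all controls, and here mutant replicate 2 was below all of them. The log2 fold change was 0.03 ± 0.19 SE (edgeR adjusted p = 0.961), and its sign depended on the library left out, from -0.07 without mutant replicate 3 to 0.21 without mutant replicate 2. Atf3 (ENSRNOG00000003745, 1894 bases), a factor induced by cellular stress and tubular injury, had 2.66, 5.38 and 3.07 CPM in Dahl SS and 4.42, 4.13 and 3.44 CPM in mutants. Dahl SS replicate 2 was the highest of the 6, and the other 2 controls were below every mutant. The Atf3 log2 fold change was 0.13 ± 0.28 SE (edgeR adjusted p = 0.871), at 0.50 without Dahl SS replicate 2 (edgeR unadjusted p = 0.0687) and -0.07 without Dahl SS replicate 1.

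Dusp1 and Btg2 encode brakes, one on MAP kinase signalling and one on the cell cycle. The groups were apart in Dusp1 and overlapped in Btg2. Dusp1 (ENSRNOG00000003977, 1936 bases) had 19.0, 15.2 and 21.0 CPM in Dahl SS and 23.1, 31.8 and 23.3 CPM in mutants. The groups did not overlap, though mutant replicate 1 lay close above Dahl SS replicate 3. The mutant level of Dusp1 was 1.42-fold that of controls (1.10 to 1.83 as 95% interval; 0.50 ± 0.16 SE on the log2 scale) and did not pass edgeR's test (unadjusted p = 0.013, adjusted p = 0.366). This was the smallest p of the 9 genes, and 581 other models had a smaller one. Without mutant replicate 2 the log2 fold change was 0.34 (edgeR unadjusted p = 0.0561), and without both end libraries of the length trend it was 0.61 (edgeR unadjusted p = 0.0086). Btg2 (ENSRNOG00000003300, 2519 bases) had 31.3, 32.7 and 30.9 CPM in Dahl SS and 35.2, 31.3 and 33.7 CPM in mutants. Its values overlapped and varied little, with a log2 fold change of 0.08 ± 0.09 SE (edgeR adjusted p = 0.737). The 95% interval from 0.917-fold to 1.22-fold was the narrowest of the 9.

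The promoters of Dusp1 and Btg2 are printed together because they were the 2 of the 5 windows that hold a full cAMP response element, the DNA site of CREB. The stretches are chr10:17184603-17184852 (+ strand) and chr13:48087691-48087940 (- strand) of GRCr8, with capitals as above.
Dusp1: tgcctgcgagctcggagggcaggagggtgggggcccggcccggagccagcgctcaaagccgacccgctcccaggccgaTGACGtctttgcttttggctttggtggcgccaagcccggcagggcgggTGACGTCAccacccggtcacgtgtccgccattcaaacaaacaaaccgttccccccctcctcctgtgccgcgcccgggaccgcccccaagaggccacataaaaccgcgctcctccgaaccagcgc
Btg2: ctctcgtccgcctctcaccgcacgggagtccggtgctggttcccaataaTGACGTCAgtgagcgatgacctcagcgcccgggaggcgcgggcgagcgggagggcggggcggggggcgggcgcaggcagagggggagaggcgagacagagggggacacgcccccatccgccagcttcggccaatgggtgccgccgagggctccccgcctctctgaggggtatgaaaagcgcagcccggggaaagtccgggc
The full element lies at -124 to -117 in Dusp1 and at -201 to -194 in Btg2, and it occurred in 1.83% of all promoters in the table. Dusp1 has a further short form at -172 to -168. No CArG box and no AP-1 site was found in either window, which says only that these letters are not there. The Fosb window held none of the marked elements.

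**Figure D2:**
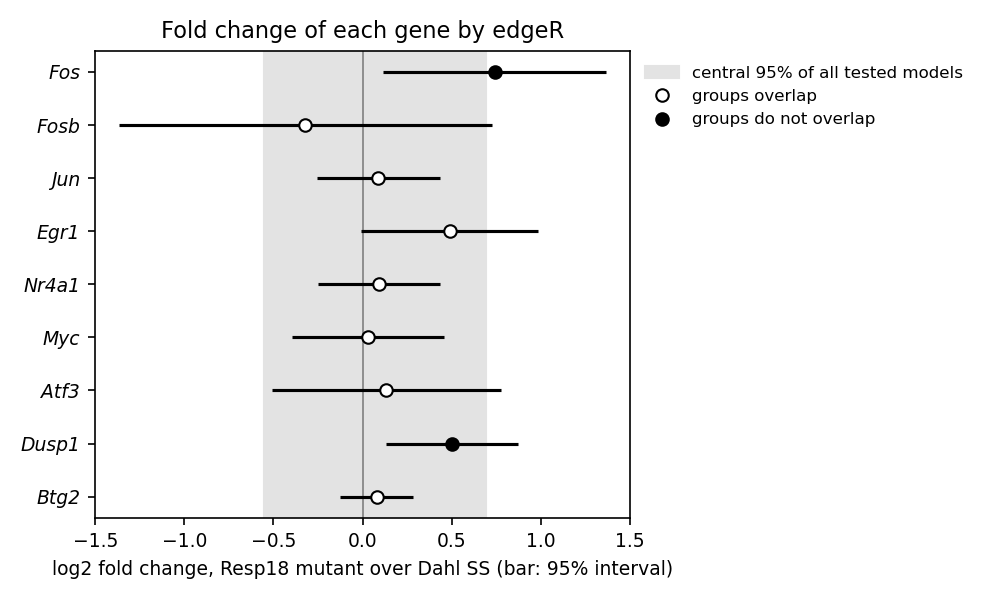
Log2 fold change of mutant over Dahl SS by edgeR, with 95% intervals; filled points are genes whose groups do not overlap, and the grey band is the central 95% of all tested models, from -0.55 to 0.69. Fos at 0.74 lies just outside the band, and the intervals of Fos and Dusp1 do not reach 0.

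The genes did not move as one block from library to library. Over the 6 libraries, the 36 pairs of genes had Pearson correlations of log2 CPM from -0.956 to 0.874 with a median of 0.161, and 22 were above 0. Over all pairs of the 16324 tested models the median was -0.00075, with quartiles at -0.421 and 0.421. The correlations span both groups, so a difference between groups enters them, and the permutations exchange libraries across groups. Taken on deviations from group means, the 36 pairs had a median of 0.129, and 21 were above 0. After Benjamini-Hochberg adjustment over the 36 pairs, 0 passed 0.05 by exact two-sided permutation, for r or for rho. By r, 3 of the 36 had an unadjusted p under 0.05, a share that was not computed over all pairs of models. An r above 0.8 occurred in 3 of the 36 pairs, where it occurred in 5.61% of all pairs of models. Jun and Myc ran opposite to each other (r = -0.956, exact permutation p = 0.00417, adjusted p = 0.15; rho = -0.943, exact permutation p = 0.0167, adjusted p = 0.3). For each pair r was also taken without the 2 libraries farthest from the median of its first gene, which narrows that gene's range. Over the 4 libraries left, r can fall or swing for that reason alone, so it does not show what a relation rests on. Without mutant replicates 2 and 3 the r of Jun and Myc was -0.679. Fos and Btg2 went together (r = 0.874, exact permutation p = 0.0236, adjusted p = 0.425; rho = 0.829, exact permutation p = 0.0583, adjusted p = 0.42). Without mutant replicates 1 and 3, the libraries farthest from the median of Fos, their r was -0.0291. Nr4a1 and Btg2 had r = 0.846 (exact permutation p = 0.0458, adjusted p = 0.5) and rho = 0.886 (exact permutation p = 0.0333, adjusted p = 0.3), with r = 0.803 when Dahl SS replicate 1 and mutant replicate 1 were left out. By rho alone, Egr1 and Myc (r = 0.734) and Nr4a1 and Atf3 (r = 0.818) were also under 0.05 unadjusted. Each had rho = 0.886 (exact permutation p = 0.0333, adjusted p = 0.3). The AP-1 partners Fos and Jun had r = -0.205 (exact permutation p = 0.694, adjusted p = 0.904) and rho = -0.543 (exact permutation p = 0.297, adjusted p = 0.594). Without mutant replicates 1 and 3 their r was 0.815.

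Some libraries were nevertheless high or low in most of the 9 genes. Mutant replicate 1 was above the gene's own mean in 8 of the 9, with Jun the exception. Dahl SS replicates 1 and 3 were above it in 1 gene each, Fosb in the one and Jun in the other. Dahl SS replicate 2 was above it in 5 genes, and mutant replicates 2 and 3 in 4 and 6. Over all tested models each library was above the model's mean in 50.6% to 51.9%. Dahl SS replicate 1 and mutant replicate 1 are the ends of the length trend, and at the lengths of the 9 genes the fitted trend ran from -0.15 (Jun) to 0.06 (Fosb) in the one and from -0.06 (Fosb) to 0.12 (Jun) in the other, on the log2 scale. Its part in the pattern over libraries was not tested. Mutant replicate 2 set itself apart by which genes were high, with the highest Jun and Dusp1 and the lowest Myc of the 6 libraries.

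**Figure D3:**
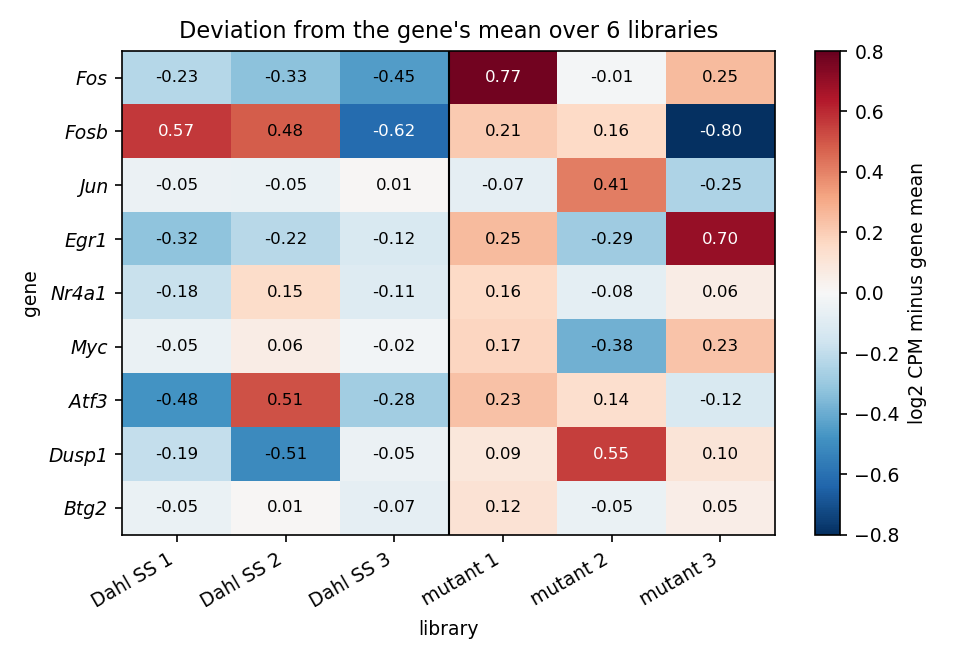
Log2 CPM of each gene minus its mean over the 6 libraries, with genes in rows and libraries in columns; red is above and blue below the gene's mean, and the line parts the groups. Mutant replicate 1 is above the mean in 8 of 9 genes, and mutant replicate 2 has high Jun (0.41) and Dusp1 (0.55) beside low Myc (-0.38).

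Spread between libraries of a group was wide for several of the 9 genes. Taken as the pooled within-group SD of log2 CPM, it had a median of 0.25 over the 9 genes and 0.18 over all tested models. Low counts widen it, so each gene was set beside the models within 0.5 log2 CPM of its own mean. The SD of Egr1, 0.36, was larger than that of 96.3% of 2361 such models. Jun at 0.24 was above 91.1% of 2146 models, and Dusp1 at 0.25 above 86.9% of 2657. Atf3 at 0.39 was above 81.7% of its 1571 models and Fosb at 0.62 above 75.3% of its 1284, while Myc at 0.24 was above 64.1% of its 1955. Fos, with an SD of 0.29, was above 38.7% of 1452 models of its abundance, and Nr4a1 with 0.15 above 24.9% of 1990. Btg2 was the steadiest, with an SD of 0.07, above 11.1% of 2646 models. For Jun the value came from the mutants: its SD was 0.03 in Dahl SS and 0.34 in mutants, and 0.08 over both groups without mutant replicate 2. Single libraries also set the pooled SD of other genes. Egr1 was at 0.20 without mutant replicate 2 and 0.23 without mutant replicate 3. Without mutant replicate 2, Myc was at 0.05 and Btg2 at 0.04. Fos was at 0.14 without mutant replicate 1, and Atf3 at 0.17 without Dahl SS replicate 2. The mutant SD was at least 2-fold that of Dahl SS in 5 of the 9 genes (Fos, Jun, Egr1, Myc and Btg2), where this held for 13.7% of all tested models. The opposite held for Atf3, with 0.52 in Dahl SS and 0.18 in mutants. These SDs rest on 3 libraries each, and the difference between groups in spread was not tested.

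**Figure D4:**
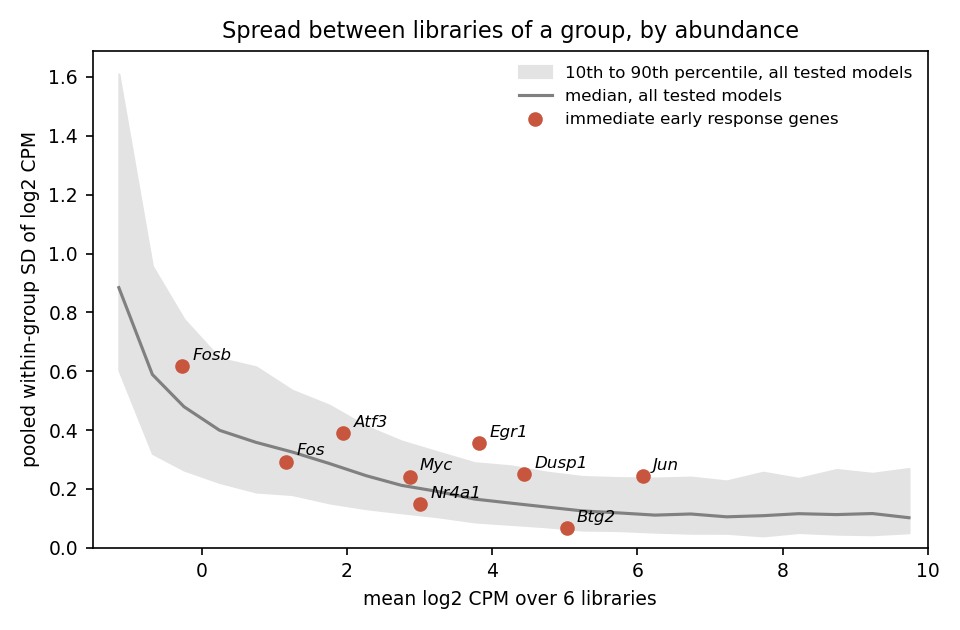
Pooled within-group SD of log2 CPM against mean log2 CPM; the grey line and band are the median and the 10th to 90th percentile of all tested models in steps of 0.5 log2 CPM, and red points are the 9 genes. Egr1 lies above the band and Jun at its upper edge, while Btg2 lies at the lower edge.

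The models most like the average pattern of the 9 genes were sought by the Pearson correlation with the mean of their standardised log2 CPM over the 6 libraries. As the 9 genes did not move as one block, a model like their average need not be like each gene. In mutant replicate 2, the average of 0.03 held Jun at 1.87 and Myc at -1.77. Among 9955 further models with a mean of at least 10 CPM, 297 had a correlation above 0.9. The highest were ENSRNOG00000003148 (r = 0.992) and ENSRNOG00000007300 (r = 0.991), which carry no name in the tables. The first had 71.1, 87.1 and 73.8 CPM in Dahl SS and 103.3, 85.4 and 90.1 CPM in mutants. Both were picked for this likeness out of 9955 models over 6 libraries, so it is given as a description.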

How the data were processed

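Kidney RNA of 6 libraries, 3 Dahl SS and 3 Resp18 mutant by their titles, was analysed from read counts per gene model, whole numbers in the authors' deposited table. The authors also deposited FPKM values for the same models. Across 117134 nonzero values these equal the count scaled by the library total and a whole-number length, so they served for levels per length and model lengths. Tools listed in the submitters' processing notes, without their roles, are CASAVA 1.8, HISAT2 2.1.0 and HTSeq 0.6.1, with build Rnor 5.0. How strand and multiply mapped reads were treated is not given in the sources. The third deposited file, a tally of models by FPKM range, was left out.

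Counts were tested in R 4.3.3 with edgeR 4.0.16: filterByExpr with default settings (count of at least 10, total of at least 15), TMM scaling, and the quasi-likelihood test with group as the sole term and Benjamini-Hochberg adjustment over all tested models. The standard error was the log2 fold change over the square root of F. Log2 CPM used a prior count of 2. Depth was 13427302 to 22854561 counts per library, and the precision for each gene is given by its interval. Pairs of genes were compared by exact permutation. Alternatives were DESeq2 1.42.0, limma-voom (limma 3.58.1), other scalings and filters, the replicate block, each library left out, removal of the length trend by loess (span 0.5), and limma on deposited FPKM as log2 with a pseudocount of 1 or 0.1. Fits were tested on simulated data. The genes, lists and alternatives were chosen with earlier results of these data known. All 9 genes are named by rule, and the 2 models most like their average pattern were taken by their correlation with it. Each member's model was no longer than the gene of its symbol in the GRCr8 RefSeq table, a weak check of the names.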

Additional observations from a re-analysis of the deposited data

How the results depend on the processing

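The count of 0 genes past an FDR of 0.05 held under all 19 alternatives. The lowest adjusted p was 0.182, for Dusp1 with DESeq2. The 2 genes at an unadjusted p under 0.05 became 1 without both end libraries of the length trend, and 1 to 2 with single libraries left out: 1 without Dahl SS replicate 2, Dahl SS replicate 3 or mutant replicate 1, and 2 without each of the others. Without mutant replicate 2 those were Fos and Egr1, with Dusp1 no longer among them. The count became 3 with DESeq2, no low-count filter or the length trend removed, with Egr1 added to Fos and Dusp1 each time. Fos (0.40 to 0.92, log2), Egr1 (0.23 to 0.72), Dusp1 (0.34 to 0.61) and Btg2 (0.03 to 0.13) kept their direction in all 19 alternatives. Fosb kept its own in each alternative with an adjusted p. It was dropped by 3 stricter filters, and DESeq2 (log2 fold change -0.34) gave it no adjusted p. Leaving out 1 library, Jun ran from -0.12 to 0.22, Myc from -0.073 to 0.21 and Atf3 from -0.066 to 0.50. Log2 fold changes that reversed were those of Jun (-0.12 without mutant replicate 2, -0.0069 with the length trend removed), Atf3 (-0.066 without Dahl SS replicate 1, -0.14 without both end libraries), Nr4a1 (-0.038 without both end libraries) and Myc. For Myc they were -0.0045 by limma-voom, -0.00021 by limma (FPKM, pseudocount 0.1), -0.046 without mutant replicate 1, -0.073 without mutant replicate 3 and -0.079 without both end libraries. The cause was not tested. Leaving out 1 library, the median within-group SD ran from 0.192 (without mutant replicate 2) to 0.285, and the median pairwise correlation from 0.0672 to 0.343 (without mutant replicate 2).

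The titles number both groups 1 to 3, but the labels used here do not say that a number marks anything shared. Libraries of like number were therefore not treated as pairs. Their deviations from group means correlated at -0.274, -0.144 and -0.00176 for replicates 1 to 3. With 3 libraries per group, these values do not settle whether the numbers mark pairs. With the replicate block 0 genes passed, and 2 had an unadjusted edgeR p under 0.05, where the count over all models fell from 1767 to 885. Dusp1 was at 0.50 and Fos at 0.72 (log2) in that fit. Depth limits Fosb most, and no alternative varied it.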

Other observations

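Ratios of FPKM within a library do not depend on library scaling. Jun over Dusp1 was 6.61, 8.21 and 6.21 in Dahl SS and 5.33, 5.41 and 4.67 in mutants (7.01 ± 1.06 and 5.14 ± 0.407, SD, n = 3), so the groups did not overlap. The level of Dusp1 alone did not overlap either. Among single models 17.2% did not overlap, and the share among ratios was not counted. Jun over Fos was 57.1, 61.2 and 69.8 in Dahl SS and 27.2, 66.9 and 34.9 in mutants, where mutant replicate 2 lay among the controls. Fos over Fosb was 3.31, 3.27 and 7.31 in Dahl SS and 8.98, 5.29 and 14.3 in mutants, and rests on few Fosb reads. Egr1 over Fos was 3.17, 3.66 and 4.29 in Dahl SS and 2.29, 2.77 and 4.55 in mutants. Dusp1 over Fos was 8.64, 7.46 and 11.2 in Dahl SS and 5.09, 12.4 and 7.48 in mutants. The groups overlapped in each of these ratios but Jun over Dusp1. These ratios were chosen after the levels of the genes had been seen, and they are given with no test.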
